A study of Homo sapiens with 6 samples.

Results

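MicroRNA gene intervals are the stretches of the count table that carry the name of a single microRNA gene, such as MIR663A or MIRLET7G. Host genes with names ending in HG and antisense genes were left out, and an interval was kept when it had at least 10 counts in any library. Of the 20333 intervals in the table, 259 bore such a name and 248 (1.22%) were kept. Just inside the minimum were MIR3139 and MIR6772, each with at most 10 counts in a library, and just outside it were MIR3200 with at most 8 and MIR4502 with at most 7. The rule used only names and a low count, though the intervals were chosen with earlier results of these data known. A member near the minimum can enter through the arm where it is high. MIR3139 reached 10 counts in GDC0068 replicate 2 and Degrader replicate 1, with 6 and 8 in DMSO. MIR6772 reached 10 in DMSO replicate 1 and Degrader replicate 1.

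The intervals were measured by PRO-seq, a nuclear run-on assay that maps RNA polymerases engaged in transcription. The cells were T47D, an oestrogen receptor-positive, HER2-negative luminal breast cancer line, kept in medium with its full complement of growth factors. They were treated for 5 h with the solvent DMSO, with 500 nM GDC0068, which blocks the kinase activity of AKT, or with 100 nM of the compound labelled Degrader (INY-05-040), which removes the AKT protein. Each arm had 2 libraries, one from each of 2 independent experiments, and the study chose the doses to give a similar loss of signalling downstream of AKT, so the comparison asks whether removing the kinase and blocking it differ in what they do to transcription. All libraries came from 1 cell line at 1 time point.

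A microRNA is cut from a hairpin in a longer primary transcript, first in the nucleus and then in the cytoplasm, and is loaded into an Argonaute protein. Its seed, the bases just after the 5′ end, pairs with messenger RNAs, and the bound complex lowers their translation and stability. Many microRNA hairpins lie in introns of protein-coding genes and are transcribed with them, and others have transcripts of their own. PRO-seq reads polymerases on the DNA, so the values here describe transcription across a microRNA gene and not the amount of mature microRNA.

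The sequences below are those of the microRNAs whose intervals passed the test against DMSO, set beside members that carry the same seed, because members with one seed could share target sites. Shown too are both arms of miR-200b, a neighbour of miR-200a, and let-7g with miR-98, since MIRLET7G is described in the comparison of the drugs. They are RefSeq mature sequences on GRCh38.p14, 5′ to 3′, with the seed (bases 2 to 8) in capitals.
hsa-miR-663a: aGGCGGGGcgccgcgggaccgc
hsa-miR-6787-5p: uGGCGGGGguagagcuggcugc
hsa-miR-663b: gGUGGCCCggccgugccugagg
hsa-miR-3648: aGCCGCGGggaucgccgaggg
hsa-miR-4521: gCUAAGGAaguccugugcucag
hsa-miR-200a-3p: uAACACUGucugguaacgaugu
hsa-miR-200b-3p: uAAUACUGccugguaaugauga
hsa-miR-200a-5p: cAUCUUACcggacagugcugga
hsa-miR-200b-5p: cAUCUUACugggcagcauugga
hsa-miR-149-3p: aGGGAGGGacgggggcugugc
hsa-miR-4728-5p: uGGGAGGGgagaggcagcaagca
hsa-miR-1285-3p: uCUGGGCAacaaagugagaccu
hsa-miR-5189-5p: uCUGGGCAcaggcggauggacagg
hsa-miR-193a-3p: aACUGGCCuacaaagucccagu
hsa-miR-203a-3p: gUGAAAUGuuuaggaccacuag
hsa-miR-6827-5p: uGGGAGCCaugagggucugugc
hsa-miR-3193: uCCUGCGUaggaucugaggagu
hsa-miR-3124-5p: uUCGCGGGcgaaggcaaaguc
hsa-miR-4656: uGGGCUGAgggcaggaggccugu
hsa-miR-6514-5p: uAUGGAGUggacuuucagcuggc
hsa-let-7g-5p: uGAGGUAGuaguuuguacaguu
hsa-miR-98-5p: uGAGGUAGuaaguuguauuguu

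RefSeq gave a mature sequence for 228 of the 248 members and for 14 of the 17 that passed the test in any comparison, all but MIR6747, MIR548AW and MIR7112. The 228 members carried 323 distinct seeds. Only 24 of those seeds were shared by at least 2 members, and these involved 47 members. As printed above, miR-663a and miR-6787-5p have the seed GGCGGGG, miR-149-3p and miR-4728-5p have GGGAGGG, miR-1285-3p and miR-5189-5p have CUGGGCA, and let-7g and miR-98 have GAGGUAG. The miR-200a and miR-200b 5p arms share AUCUUAC while their 3p seeds differ. In none of these pairs did both members pass the test against DMSO under the same drug.

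The intervals reached well beyond the hairpins. Their length ran from 7 to 1096 bp with a median of 463.5 bp, against a median of 13766 bp over the whole table. RefSeq placed a hairpin in 198 of them, and in 196 of these the interval ended at the last base of the hairpin. The median stretch upstream of the hairpin was 391.5 bp and the longest was 998 bp. A hairpin had a median length of 80 bp, which was 17.4% of the interval that held it, so most of the counted bases lay upstream of the microRNA. Among these 198, the intervals of MIR205 and MIR3188 began inside the hairpin. All mature sequences lay inside the interval for 225 of the 228 members that had one. MIR663A and MIR3648-2 were the members with none inside: miR-663a is placed at chr20:26208243-26208264 while the MIR663A interval is chr20:26208186-26208236 on the minus strand, and miR-3648 is placed at chr21:8987026-8987046 while the MIR3648-2 interval is chr21:8987172-8987178 on the plus strand. In both, the whole interval lies downstream of the mature sequence, unlike most members.

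**Figure D1:**
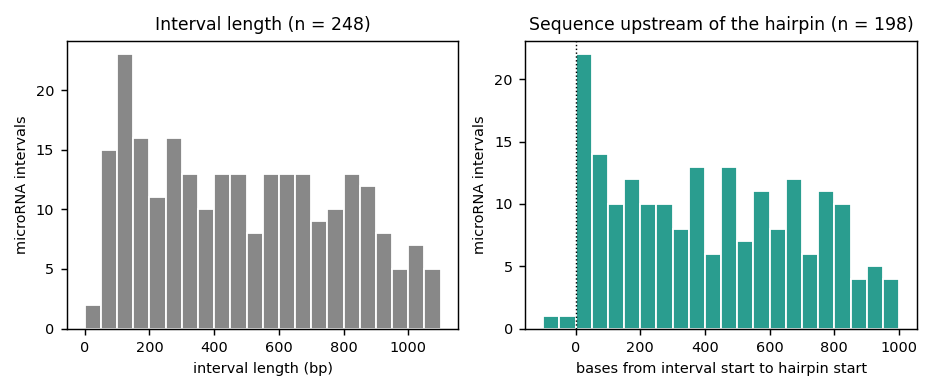
Histograms of the length of the 248 microRNA intervals (left, bp) and of the bases between the start of the interval and the start of the hairpin in the 198 with a RefSeq hairpin (right, bp), with the number of intervals on the vertical axes. The dotted line marks an interval that starts at its hairpin; only 2 intervals lie to its left, and the median upstream stretch is 391.5 bp.

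Most members lay in another gene. Positions are those of the table, and the submitters' processing notes list hg38 and GRCh38 among the builds. Of the 248, 168 were wholly inside a longer interval on the same strand, 5 partly overlapped one, 19 overlapped only an interval on the opposite strand, and 56 overlapped none. RefSeq places another gene, on either strand, over 217 of the 248, so a member that overlaps no interval can still lie in a gene. The 168 had 162 distinct hosts. Read density per kilobase, in CPM (counts scaled by library total), was higher in the member than in its host for 98 of the 168, with a median ratio of 1.12. Only 4 members were at least 5 times as dense as their host. These were MIR5087 in LINC01138 with a ratio of 137, MIR4519 in BCL7C with 52.3, and MIR6081 and MIR27B in AOPEP with 7.24 and 6.53. RefSeq also places RNVU1-21, listed as a pseudogene, over the MIR5087 interval, and which gene those reads come from was not tested. Reads inside a host count towards both intervals wherever the counting allowed it, and the use of strand is not given in the sources used here, so reads of a member, its host and any antisense partner cannot be told apart.

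The libraries held between 25371819 and 32192576 counts, and the members held between 0.467% and 0.506% of them. The median member had between 43 and 59.5 counts in a library, and a count of 51.5 has a counting error of 13.9%. On the CPM scale the median member was at 1.74, against 23.8 over all intervals. Per kilobase the order turned, with a median of 4.85 CPM per kb in the members and 1.67 over all. Members at 10 CPM or more numbered 30, and 73 were under 1 CPM. The spread between libraries that the fit estimated was also wider, with a median coefficient of biological variation of 9.54% in the members and 5.79% over all. Luminal markers were present in the table, from EPCAM at 31.7 CPM to GATA3 at 1370 CPM, with ESR1 at 1125 CPM.

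Few members dominated the level. The 4 copies of MIR6724 took 73.3% of the members' CPM and MIR663A took 5.10%. These 5 were also the highest members per kilobase. Without the MIR6724 copies the members summed to 1539 and 1510 CPM in DMSO, 1217 and 1121 in GDC0068-treated cells, and 1253 and 1133 in Degrader-treated cells. Both treated arms were below DMSO in that sum. When MIR663A and MIR663B were also left out the sums were 1023 and 992 CPM in DMSO, 1049 and 996 under GDC0068, and 1031 and 982 under the Degrader, and the arms overlapped.

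Transcription of a small set of members changed under each drug, with MIR663A, MIR663B and MIR4521 lower and MIR6827 and MIR548AW higher under both. Of the 248, 245 passed the filter on low counts. Under the Degrader 12 differed from DMSO at an adjusted p under 0.05 in edgeR's quasi-likelihood test. That is 4.90% of those tested, against 15.3% of all 19902 intervals. Among the 12, 5 were higher and 7 lower, where 7.39% of all intervals were higher and 7.88% lower. Under GDC0068, 10 members differed from DMSO, or 4.08% against 3.58% of all intervals. Of these 4 were higher and 6 lower, where 1.7% of all intervals were higher and 1.88% lower. Values in parentheses after a log2 fold change are, unless given as an SE, adjusted p-values of this edgeR test. The median log2 fold change of the members was -0.05 under the Degrader and -0.04 under GDC0068, with 0.00 and 0.01 over all intervals. The DMSO libraries serve both comparisons. A change in bulk cells can come from fewer cells that transcribe a gene or from less transcription per cell, and these cannot be told apart.

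Libraries with the same replicate number were taken to come from the same experiment, and a fit with that number as a replicate block called more. It called 27 members under the Degrader (11.0%, against 30.7% of all intervals) and 18 under GDC0068 (7.35%, against 17.8%). All 17 members called in any comparison without the block were also called with it. Most calls were on the deeper members. Of the 91 with at least 100 counts in a library, 9 (9.89%) were called under each drug without the block. Of the 154 with fewer, 3 (1.95%) were called under the Degrader and 1 (0.649%) under GDC0068. The shares over all intervals, whatever their depth, were 15.3% and 3.58%. The median standard error of a member's log2 fold change was 0.24 in both drug comparisons, against 0.09 over all intervals.

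**Figure D2:**
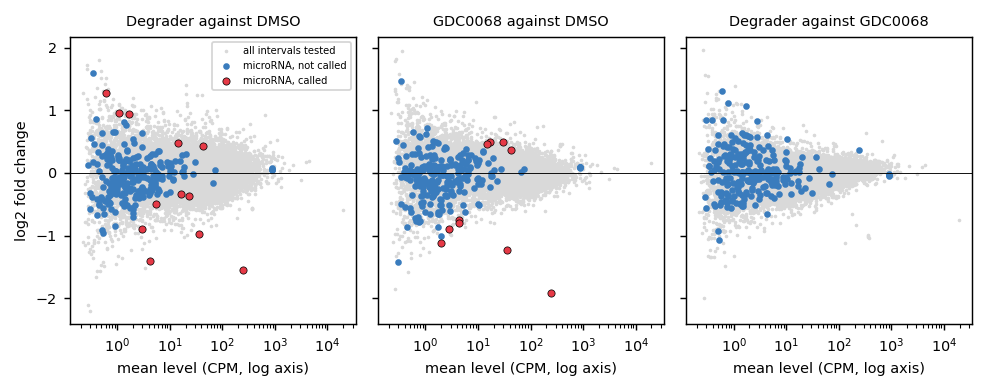
Log2 fold change against mean level (CPM, log axis) for each of the 3 comparisons; grey points are all 19902 intervals tested, blue points the microRNA intervals and red points the microRNA intervals with an adjusted p under 0.05. The 12 members called under the Degrader and the 10 called under GDC0068 lie on both sides of 0, MIR663A lies lowest in both among them, and no member is red in the direct comparison of the drugs.

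The largest changes that passed the test were in MIR663A. Its interval (ENSG00000284419) lies in RefSeq's MIR663AHG, a long non-coding RNA gene, and overlaps no other interval of the table. MIR663A was at 465 and 457 CPM in DMSO, fell to 140 and 105 under GDC0068 and to 188 and 128 under the Degrader. Every treated library was below both DMSO libraries, and the libraries of the treated arms overlapped each other. The log2 fold change was -1.91 (SE 0.15) under GDC0068, to 0.27 of the DMSO level, and -1.54 (SE 0.15) under the Degrader, to 0.34 of it, with edgeR adjusted p-values of 0.000342 and 0.000170 (n = 2 per arm). Both calls held whichever library was left out, with log2 fold changes from -2.14 to -1.72 under GDC0068 and from -1.85 to -1.30 under the Degrader. With robust estimation of the spread the adjusted p under GDC0068 was 0.0697.

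MIR663B, a 1000 bp interval on chr2:132256966-132257965 inside RefSeq's ANKRD30BL, moved the same way. The miR-663a sequence matches the 115-base MIR663B hairpin at 18 of its 22 bases without gaps, but the seeds differ, as the letters above show. MIR663B was at 51.0 and 61.4 CPM in DMSO, 27.9 and 20.1 under GDC0068, and 35.0 and 22.2 under the Degrader. Again no treated library reached the DMSO libraries. It fell by 1.23 (SE 0.18) on the log2 scale under GDC0068 and by 0.97 (SE 0.18) under the Degrader, with edgeR adjusted p-values of 0.00847 and 0.00481. Robust estimation ended both calls, at 0.169 and 0.152. Leaving out DMSO replicate 2 or GDC0068 replicate 2 also ended the GDC0068 call, with log2 fold changes over the left-out libraries from -1.48 to -1.01. How reads that match both genes were placed is not given in the sources used here, so counts of MIR663A and MIR663B may not be independent.

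MIR6724 lies in the ribosomal DNA on chromosome 21 and MIR3648 on the same chromosome, and both exist as near-identical copies. RefSeq places the ribosomal RNA gene RNA45SN2 over MIR3648-1 and no ribosomal RNA gene over MIR3648-2. The 4 MIR6724 intervals were between 298 and 617 bp long and each overlapped a neighbouring interval of the table by 108 bp. Their counts agreed within 2.25% of the mean in every library, and the variance between the copies was a median of 1.11 times their mean count, which is close to sampling noise, so they are described as 1 locus. MIR6724-1 was at 881 and 830 CPM in DMSO, 923 and 904 under GDC0068, and 913 and 890 under the Degrader. No copy passed the test in any comparison; log2 fold changes ran from 0.08 to 0.10 under GDC0068 and from 0.04 to 0.08 under the Degrader.

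Some other ribosomal intervals moved where MIR6724 passed no test. The short intervals that the MIR6724 copies partly overlap (FP671120.1, FP671120.3, FP236383.1 and FP236383.2) passed no test against DMSO either. Their log2 fold changes ran from 0.04 to 0.07 under the Degrader and from 0.08 to 0.09 under GDC0068. The 5.8S ribosomal RNA interval RNA5-8SN1 was at 402 and 324 CPM in DMSO, 505 and 494 under GDC0068, and 263 and 222 under the Degrader, with edgeR adjusted p-values of 0.0283 and 0.00272 against DMSO. FP236383.3, the 29382 bp interval that contains MIR6724-3, fell by 0.59 on the log2 scale under the Degrader (edgeR adjusted p = 0.00563) and was at 0.16 under GDC0068 (0.460, or 0.00369 with the replicate block). Whether these reads come from ribosomal RNA carried into the libraries was not tested.

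The MIR3648 intervals were 7 bp long, the shortest of all members. MIR3648-2 had 90 and 81 counts in DMSO, 31 and 43 under GDC0068, and 64 and 38 under the Degrader. Its near-identical copy MIR3648-1 had 97 and 67, 39 and 37, and 63 and 44. DMSO was highest in both copies, and every treated library lay below both DMSO libraries. MIR3648-2 fell by 1.12 (SE 0.26) on the log2 scale under GDC0068, with an edgeR adjusted p of 0.0403, and MIR3648-1 had a log2 fold change of -1.01 (SE 0.25) with 0.0502. Leaving out any of the DMSO or GDC0068 libraries ended the MIR3648-2 call (log2 fold changes from -1.25 to -1.03). Under the Degrader neither copy passed, at 0.0752 and 0.128, but both did with the replicate block, at 0.0198 and 0.0432, as did MIR3648-1 under GDC0068 at 0.00271.

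MIR4521 was the member that fell furthest under the Degrader after MIR663A. Its interval, chr17:8186863-8187004 on the plus strand, overlaps no other interval of the table, but RefSeq places the serine tRNA gene TRS-GCT4-3 in it, and it was the only member over a tRNA gene. It was at 6.78 and 6.21 CPM in DMSO, 4.33 and 3.42 under GDC0068, and 2.79 and 2.13 under the Degrader. The 3 arms did not overlap. It fell by 1.41 (SE 0.18) on the log2 scale under the Degrader (edgeR adjusted p = 0.000749) and by 0.76 (SE 0.17) under GDC0068 (0.0378). Its Degrader call held without each library in turn, from -1.61 to -1.23. The GDC0068 call ended without any of the DMSO or GDC0068 libraries, from -0.93 to -0.60. A non-coding interval 954 bp away on the same strand, AC129492.7, had log2 fold changes of -0.81 (edgeR adjusted p = 0.00930) and -0.37 (0.235).

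The members that rose under both drugs lay in or beside a gene that rose under the Degrader. MIR6827 lies in AMOTL2, which encodes an angiomotin-family scaffold of cell junctions. The MIR6827 interval (chr3:134367804-134368726, minus strand) was at 36.8 and 34.1 CPM in DMSO, 45.6 and 45.6 under GDC0068, and 49.1 and 46.7 under the Degrader. The treated libraries were all above DMSO, and the Degrader libraries were above those of GDC0068. It rose by 0.36 (SE 0.06) and 0.43 (SE 0.06) on the log2 scale under GDC0068 and the Degrader, with edgeR adjusted p-values of 0.0144 and 0.00138. AMOTL2, of which the MIR6827 interval is 7.43% by CPM, rose by 0.31 under each drug. The Degrader call on MIR6827 held without each library, and the GDC0068 call ended without any of the DMSO or GDC0068 libraries (0.31 to 0.41).

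MIR548AW (chr9:132944956-132945771, plus strand) lies 347 bp from TSC1 on the opposite strand in the table, and RefSeq places both TSC1 and GFI1B over it. TSC1 encodes hamartin, part of the complex that holds back mTORC1 downstream of AKT. MIR548AW was at 11.6 and 11.4 CPM in DMSO, 15.3 and 16.5 under GDC0068, and 15.7 and 16.5 under the Degrader. It rose by 0.46 (SE 0.10) and 0.49 (SE 0.10), with edgeR adjusted p-values of 0.0282 and 0.00689 under GDC0068 and the Degrader. The treated arms overlapped each other and not DMSO. TSC1 rose by 0.31 under the Degrader, and under GDC0068 it was at 0.18 with an edgeR adjusted p of 0.0640, or 0.00107 with the replicate block. The MIR548AW call ended without DMSO replicate 1 or Degrader replicate 2 under the Degrader (0.44 to 0.52) and without any of the 4 libraries compared under GDC0068 (0.40 to 0.52).

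These 5 members, MIR663A, MIR663B, MIR4521, MIR6827 and MIR548AW, were the ones called under both drugs. They made up 41.7% of the Degrader calls and 50.0% of the GDC0068 calls, and each went the same way in both. The overlap of calls over all intervals was not computed, so these shares cannot be read as particular to the members. Because both comparisons use the same DMSO libraries, this agreement is not 2 independent observations.

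**Figure D3:**
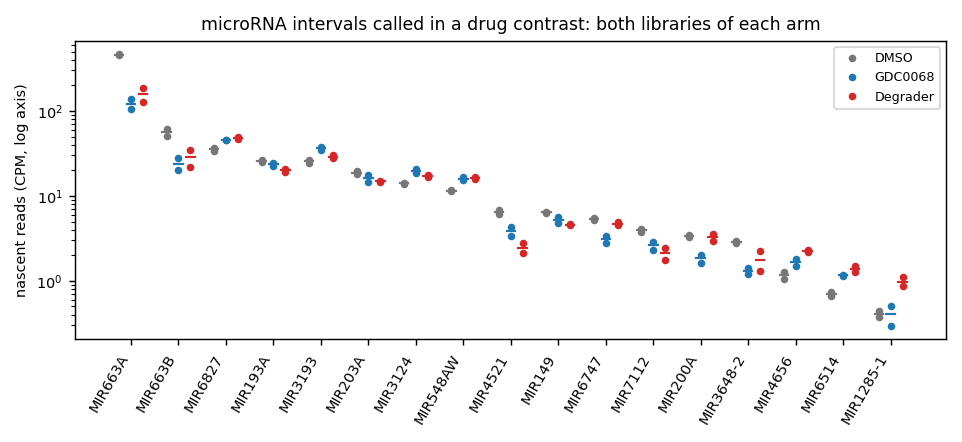
Level of the 17 members called in either drug comparison (CPM, log axis), with a point for each of the 2 libraries per arm and a bar at the arm's mean; grey is DMSO, blue GDC0068 and red the Degrader. MIR663A falls from 465 and 457 CPM in DMSO to between 105 and 188 in the treated libraries, while MIR6827 and MIR548AW rise in every treated library.

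Among the 7 further calls under the Degrader, 4 were lower. MIR7112 lies in BOP1, which encodes a factor for assembly of the large ribosomal subunit. MIR7112 was at 4.14 and 3.75 CPM in DMSO, 2.91 and 2.33 under GDC0068, and 2.47 and 1.78 under the Degrader. It fell by 0.89 (SE 0.21) on the log2 scale under the Degrader (edgeR adjusted p = 0.0143), and BOP1 fell by 0.66 (SE 0.09; 0.00125). Under GDC0068 the MIR7112 value was -0.60 with an adjusted p of 0.128, or 0.0234 with the replicate block in edgeR, and BOP1 fell by 0.46. Leaving out DMSO replicate 1 or Degrader replicate 2 ended the Degrader call on MIR7112 (-1.15 to -0.68).

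MIR149 lies in GPC1, which encodes the cell-surface heparan sulphate proteoglycan glypican-1. The MIR149 interval (chr2:240455737-240456089, plus strand) was at 6.50 and 6.36 CPM in DMSO, 5.62 and 4.83 under GDC0068, and 4.63 and 4.53 under the Degrader, so the 3 arms did not overlap. It fell by 0.49 (SE 0.14) under the Degrader (edgeR adjusted p = 0.0376), and GPC1 fell by 0.26 (SE 0.05; 0.00487). AC110619.1, which partly overlaps MIR149 on the opposite strand, was at -0.25 (0.137, or 9.51e-06 with the replicate block). Under GDC0068 MIR149 was at -0.30 (0.254). MIR4728, which shares the miR-149-3p seed and lies in ERBB2, was at -0.03 under the Degrader (0.954).

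MIR193A (chr17:31559224-31560083) and MIR203A (chr14:104117145-104117514), both on the plus strand, overlap no other interval of the table. MIR203A encodes a microRNA known for its part in epithelial differentiation. MIR193A was at 26.3 and 25.3 CPM in DMSO, 24.5 and 22.7 under GDC0068, and 20.8 and 19.2 under the Degrader, and fell by 0.37 (SE 0.09) under the Degrader (edgeR adjusted p = 0.0156). The nearest interval on the same strand, AC003101.1 at 11.2 kb, fell by 0.42 (0.0215). MIR203A was at 18.1 and 19.6, 17.6 and 14.8, and 15.1 and 14.6 CPM in the same order of arms, and fell by 0.34 (SE 0.11; edgeR adjusted p = 0.0488), close to the threshold. The Degrader libraries lay below DMSO in both genes, and neither passed under GDC0068, at 0.437 and 0.269. Leaving out any DMSO or Degrader library ended the calls on MIR149 (-0.51 to -0.48) and MIR203A (-0.40 to -0.28), and so did all but Degrader replicate 1 for MIR193A (-0.43 to -0.32).

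The 3 members that rose only past the Degrader threshold had low counts. MIR4656 (chr7:4788565-4789635), which overlaps the adaptor complex gene AP5Z1 on the opposite strand, was at 1.28 and 1.07 CPM in DMSO, 1.81 and 1.51 under GDC0068, and 2.33 and 2.20 under the Degrader. MIR6514 (chr11:62792702-62793243), in the mRNA export factor gene NXF1, was at 0.747 and 0.662, 1.14 and 1.18, and 1.50 and 1.27. MIR1285-1 (chr7:92204015-92204639), in AC000120.2 and also wholly within the longer interval of KRIT1 on the same strand, was at 0.373 and 0.441, 0.511 and 0.296, and 0.870 and 1.10. The Degrader libraries were the highest of all 6 in each.

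Their log2 fold changes under the Degrader were 0.94 (SE 0.23) for MIR4656, 0.96 (SE 0.28) for MIR6514 and 1.27 (SE 0.37) for MIR1285-1, with edgeR adjusted p-values of 0.0192, 0.0372 and 0.0367. AP5Z1 rose by 0.26 (0.00914), while NXF1 was at 0.04 (0.660) and AC000120.2 at 0.28 (0.247). KRIT1, the longer host of MIR1285-1, rose by 0.22 (0.0291). Each of these 3 calls ended when any DMSO or Degrader library was left out, with ranges from 0.83 to 1.08, 0.84 to 1.07 and 1.09 to 1.43. MIR5189, which shares the seed of miR-1285-3p, was at -0.49 (0.456).

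Members called under GDC0068 and not under the Degrader numbered 5, with MIR3648-2 among them. For none of the 5 did the difference between the drugs pass the test without the replicate block. MIR200A (chr1:1167422-1167952, plus strand) encodes a member of the miR-200 family, known for keeping ZEB1 and ZEB2 low in epithelial cells. MIR200A was at 3.33 and 3.49 CPM in DMSO, 2.05 and 1.64 under GDC0068, and 3.55 and 2.95 under the Degrader. Only the GDC0068 libraries lay apart. It fell by 0.89 (SE 0.20) on the log2 scale under GDC0068 (edgeR adjusted p = 0.0366), and its value under the Degrader was -0.07 (0.844). MIR200B, whose interval ends just before that of MIR200A on chromosome 1, was at 1.34 and 2.06, 1.46 and 1.28, and 1.60 and 1.75 CPM and overlapped between arms; its log2 fold change under GDC0068 was -0.30 (SE 0.27; 0.579). Both lie in RefSeq's MIR200BHG.

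MIR6747 (chr11:62567011-62567455, minus strand), in the translation elongation factor gene EEF1G, was at 5.57 and 5.26 CPM in DMSO, 2.79 and 3.39 under GDC0068, and 4.91 and 4.53 under the Degrader. It fell by 0.80 (SE 0.16) under GDC0068 (edgeR adjusted p = 0.0252) and was at -0.20 (0.420) under the Degrader. EEF1G fell by 0.37 and 0.36 under the 2 drugs, and these values passed the test under both.

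MIR3193 and MIR3124 rose under GDC0068. MIR3193 (chr20:31606973-31607240) lies 462 bp from ID1, an inhibitor of basic helix-loop-helix transcription factors, on the same strand. MIR3193 was at 26.6 and 24.7 CPM in DMSO, 38.0 and 34.5 under GDC0068, and 30.3 and 27.8 under the Degrader, with a rise of 0.49 (SE 0.08; edgeR adjusted p = 0.0116). MIR3124 (chr1:248826343-248826443) lies 420 bp from SH3BP5L on the opposite strand and was at 14.1 and 13.9, 21.0 and 18.6, and 16.5 and 17.7 CPM, with a rise of 0.50 (SE 0.10; edgeR adjusted p = 0.0225). In both genes GDC0068 was highest, the Degrader lay between, and no arm overlapped another. ID1 was at 0.16 (0.122, or 0.0054 with the replicate block) and SH3BP5L rose by 0.30 (0.0324).

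Under the Degrader MIR3193 was at 0.18 and MIR3124 at 0.29, with edgeR adjusted p-values of 0.178 and 0.0706, or 0.0468 and 0.0175 with the replicate block. The GDC0068 calls on MIR200A (-1.05 to -0.74), MIR6747 (-0.96 to -0.68) and MIR3124 (0.41 to 0.58) ended without any of the DMSO or GDC0068 libraries, and that on MIR3193 (0.42 to 0.56) without all but GDC0068 replicate 2.

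Each of the 22 calls was set beside the shortest host, or beside the nearest interval where there is no host. In this tally the partner was called with the same sign in 10, which involved 9 members. Where the partner covered the member or lay within 2 kb, this was so in 9 of 14 calls and 8 of 11 members. Over all intervals 15.3% were called under the Degrader and 3.58% under GDC0068. With the replicate block for the partner the counts were 12 of 22 and 11 of 14, with TSC1 and ID1 added under GDC0068. The partners so called were BOP1, GPC1, AMOTL2, EEF1G, AP5Z1, TSC1, SH3BP5L, AC129492.7 and, further off, AC003101.1. MIR663A and MIR663B had no near partner: the nearest intervals, at 196942 and 87650 bp, were not called.

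**Figure D4:**
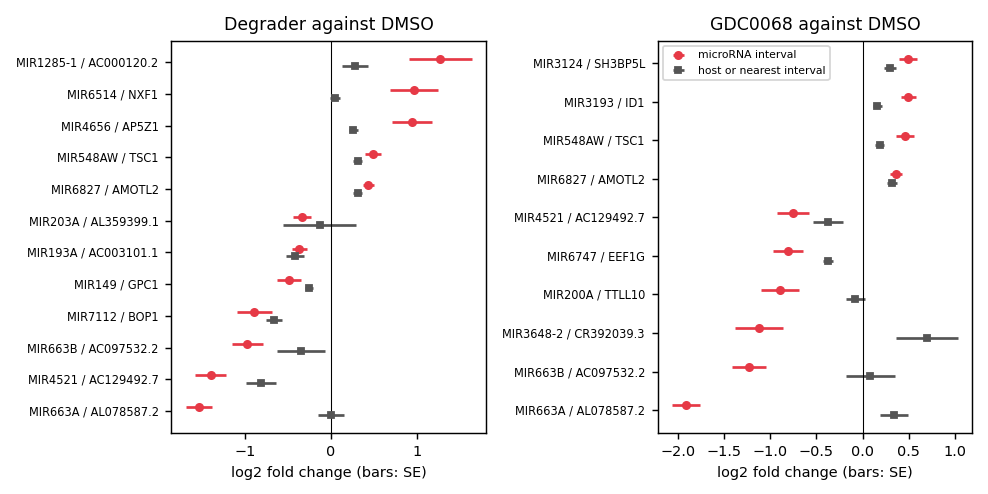
Log2 fold change with its SE for each called member (red circles) and for its host or nearest interval (grey squares), under the Degrader (left) and GDC0068 (right). Circle and square lie on the same side of 0 for MIR7112 and BOP1, MIR149 and GPC1, MIR6827 and AMOTL2, and MIR6747 and EEF1G, while the intervals nearest to MIR663A stand well away from it.

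Inside a host, the member's log2 fold change went with that of the host more closely at higher depth in both comparisons with DMSO, but not in the direct comparison of the drugs. Under the Degrader Pearson's r was 0.46 and Spearman's rho 0.51 over 165 pairs, and 0.73 and 0.77 over the 50 with at least 100 counts in a library. Under GDC0068 the values were 0.30 and 0.31 over all pairs, and 0.65 and 0.61 over those 50. In the direct comparison of the drugs they were 0.30 and 0.29, and 0.21 and 0.26. These describe pairs that share libraries and, where the counting allowed it, reads, and genes are not replicates.

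Of the 165 pairs, the host was called in 44 under the Degrader and the member had the host's sign in 34 of these. Under GDC0068 the host was called in 5 and the sign was shared in 4. The member itself was called in 5 and 2 of the 165. Of the 56 members that overlap no interval of the table, 6 (10.7%, against 15.3% of all intervals) were called under the Degrader and 8 (14.3%, against 3.58%) under GDC0068. Some of these 56 overlap a RefSeq gene, such as MIR663B in ANKRD30BL.

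**Figure D5:**
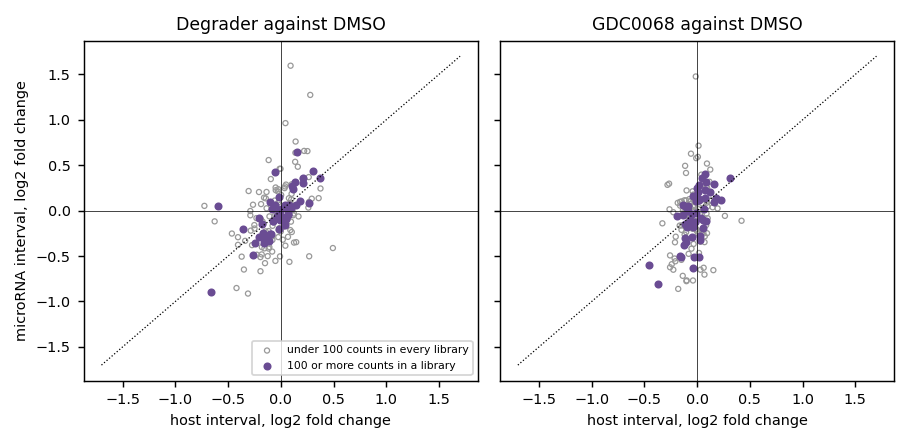
Log2 fold change of each of 165 members against that of the host interval on the same strand, under the Degrader (left) and GDC0068 (right); filled points have at least 100 counts in a library, open points fewer, and the dotted line marks equal values. The filled points follow the line more closely, with r of 0.73 under the Degrader and 0.65 under GDC0068.

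The members in AKT2 and in the sterol regulator genes passed no test. MIR641 lies in AKT2 itself, a gene for one of the targeted kinases. MIR641 was at 1.28 and 1.76 CPM in DMSO, 1.69 and 1.87 under GDC0068, and 1.32 and 1.24 under the Degrader; its log2 fold changes were 0.25 (edgeR adjusted p = 0.621) and -0.24 (0.588). MIR33A and MIR33B, with the shared seed UGCAUUG, lie in SREBF2 and SREBF1, the genes of the main transcription factors of sterol and fatty acid synthesis, and miR-33 is known for lowering cholesterol export.

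SREBF2 rose by 0.26 under the Degrader and SREBF1 fell by 0.18, with edgeR adjusted p-values of 0.00810 and 0.0324, while MIR33A was at 0.09 (0.785) and MIR33B at -0.40 (0.177). MIR33A had 4.64 and 3.68 CPM in DMSO against 3.97 and 4.91 under the Degrader, and the arms overlapped. MIR33B had 2.80 and 2.72 against 2.02 and 2.16, and they did not. For MIR33A the standard error was 0.18, so a change of the size of that of SREBF2 was not detectable at this depth.

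A list of widely studied microRNAs gave 21 tested members, of which 2 (9.52%, against 15.3% of all intervals) were called under the Degrader, MIR149 and MIR203A, and 1 (4.76%, against 3.58%) under GDC0068, MIR200A. The median log2 fold changes were -0.07 and -0.08, against 0.00 and 0.01 over all intervals. The others with at least 30 counts in every library passed no test: MIR1205, MIR196A2, MIR25, MIR27B, MIR320A, MIR33A, MIR33B, MIR454, MIR641 and MIR200B had adjusted p-values from 0.116 for MIR25 under GDC0068 to 0.997 for MIR200B under the Degrader in edgeR. MIR25, from the cluster in the replication gene MCM7, was at 6.63 and 5.55 CPM in DMSO, 3.82 and 4.70 under GDC0068, and 5.05 and 5.97 under the Degrader. Its log2 fold change under GDC0068 was -0.51 (SE 0.17), and its adjusted p was 0.0187 with the replicate block in edgeR.

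Of the copies and relatives by name, MIR320A was at 12.3 CPM over all libraries, MIR320B2 at 1.32 and MIR320D1 at 0.393. The variance between relatives was a median of 262 times their mean for MIR320, 2595 for MIR663, 9.51 for MIR200 and 9.22 for MIR33.

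Compared directly, the drugs separated no member. In edgeR 0 of the 245 differed between the Degrader and GDC0068 at an adjusted p under 0.05, against 0.266% of all intervals, and 22 had an unadjusted p under 0.05, as did 14.1% of all intervals. DESeq2 and limma-voom also called 0. The members' median log2 difference, Degrader minus GDC0068, was 0.01. With the replicate block 13 (5.31%) were called, against 10.4% of all intervals.

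MIR663A was among the 13, at 0.37 (SE 0.15) higher under the Degrader with an edgeR adjusted p of 0.304 without the block and 0.000877 with it. MIR4521 was 0.65 (SE 0.20) lower under the Degrader (0.179 and 0.0173), and MIR200A was 0.83 (SE 0.20) higher (0.112 and 0.00946). MIR6747 was 0.60 higher (0.147 and 0.0197) and MIR3193 0.32 lower (0.129 and 0.00250). Thus the 2 drugs' libraries did not overlap for MIR4521, MIR200A, MIR6747 and MIR3193, while for MIR663A they did. Within each replicate number, however, MIR663A was higher under the Degrader than under GDC0068, by 0.42 and 0.29 on the log2 scale.

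MIRLET7G, chosen for mention after its values were seen, had the smallest unblocked adjusted p of those discussed in this comparison. It encodes a let-7 microRNA, a family known for opposing proliferation genes, and lies in WDR82. MIRLET7G had 60 and 52 counts in DMSO, 25 and 33 under GDC0068, and 68 and 58 under the Degrader. Its GDC0068 libraries were the lowest. The Degrader minus GDC0068 difference was 1.07 (SE 0.24) on the log2 scale, with an edgeR adjusted p of 0.0904, or 0.00750 with the block. WDR82 differed by 0.04 between the drugs. MIR98, with the same seed, was at -0.44 (SE 0.35; 0.597).

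Among the protein genes that make and use microRNAs, the exporter gene XPO5 and AGO2 fell under the Degrader, while AGO4, TNRC6B and TNRC6C rose. Of 38 tested, 10 (26.3%, against 15.3% of all intervals) were called, 6 higher and 4 lower, with a median log2 fold change of 0.00. Among the 13 for processing and export, XPO5, the exporter of hairpin precursors, fell from 102 ± 3.71 to 80.0 ± 2.64 CPM (SD, n = 2 per arm), by 0.36 on the log2 scale (edgeR adjusted p = 0.00179). RAN, the GTPase that XPO5 works with, fell by 0.44 (0.00102). DROSHA at 0.04, DGCR8 at -0.14 and DICER1 at -0.08 passed no test in edgeR, with 0.622, 0.0765 and 0.465; DGCR8 passed with the replicate block (0.00691).

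Of the 7 Argonaute and TNRC6 genes, AGO2 fell by 0.24 (0.0108), while AGO4 rose by 0.45 (0.00343), TNRC6B by 0.35 (0.00234) and TNRC6C by 0.18 (0.0318), all in edgeR. TNRC6 proteins are the scaffolds through which Argonaute recruits deadenylases. Among the 7 deadenylation genes, CNOT6L rose by 0.33 (0.00513), PAN3 by 0.23 (0.0289) and PAN2 by 0.22 (0.0343). Of the 11 regulators, HNRNPA1, an RNA-binding protein, fell by 0.24 (0.0226).

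Under GDC0068 2 of the 38 (5.26%, against 3.58% of all intervals) were called: XPO5 fell by 0.29 (edgeR adjusted p = 0.0180) and CNOT6L rose by 0.26 (0.0406). The median was -0.01. AGO2 was at -0.20, AGO4 at 0.24, TNRC6B at 0.14 and TNRC6C at 0.15 under GDC0068, with the signs they had under the Degrader. These 4 passed only with the replicate block, at edgeR adjusted p-values of 0.000197, 0.0257, 0.00903 and 0.00383. Without the block no gene of the list differed between the drugs. With it, RAN was 0.31 lower (0.0670 without, 0.000415 with) and TNRC6B 0.21 higher (0.135 and 0.000268) under the Degrader than under GDC0068. With the replicate block the counts were 17 (44.7%) under the Degrader, 10 (26.3%) under GDC0068 and 7 (18.4%) between the drugs, against 30.7%, 17.8% and 10.4% of all intervals.

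Host genes named for a microRNA (names ending in HG) gave 30 tested, of which 8 (26.7%, against 15.3% of all intervals) were called under the Degrader, 5 higher and 3 lower, and 0 under GDC0068, against 3.58%. The median log2 fold change was -0.04 under the Degrader and -0.01 under GDC0068. MIR205HG rose by 0.49, MIR4500HG by 0.46 and MIR181A2HG by 0.26, with edgeR adjusted p-values of 0.0344, 0.0049 and 0.0431. Under GDC0068 MIR205HG was at 0.42 (0.123, or 3.22e-05 with the replicate block), and it differed by only 0.07 between the drugs (0.849). MIR4500HG was at 0.13 (0.444) and MIR181A2HG at 0.10 (0.523) under GDC0068, and neither passed with the block. MIR210HG, host of the hypoxia-induced miR-210, fell by 0.49 (0.00982). MIR200CHG, host of miR-200c, fell by 0.38 (0.0221) and MIR1915HG by 0.35 (0.0368). MIR200A, of the same family as miR-200c, was at -0.07 under the Degrader. With the replicate block 13, 3 and 5 of the 30 (43.3%, 10.0% and 16.7%) were called under the Degrader, under GDC0068 and between the drugs, against 30.7%, 17.8% and 10.4% of all intervals.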

How the data were processed

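PRO-seq was measured in 6 T47D libraries, 2 each for DMSO, GDC0068 and Degrader. The authors deposited unnormalised read counts for each gene interval, as judged by their form: whole numbers, with library totals between 25371819 and 32192576. Per the submitters' processing notes, cutadapt 1.14, Bowtie 1.2.2, SAMtools 1.3.1, HISAT2 2.2.1 and limma were used and the builds dm3, hg38 and GRCh38 named, with no role or order. The counting tool, use of strand, treatment of reads that match several copies, removal of duplicates and any fly spike-in are not given in the sources used here, and each can change a microRNA count. Starts are written counting from 1.

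All 20333 intervals entered 1 fit in edgeR 4.0.16 (R 4.3.3): filterByExpr (minimum count 10, minimum total 15), TMM factors from 0.997 to 1.003, a common biological variation of 5.51%, and a quasi-likelihood test with a term per arm and 3 residual degrees of freedom. TMM removes any change common to all genes. Adjusted p-values are Benjamini-Hochberg over the 19902 intervals tested, with a threshold of 0.05. CPM uses TMM-scaled totals. Since 2 libraries make each arm, p-values measure the spread between these samples. The labels number the 2 libraries of each arm, and an equal number was taken to mean the same experiment, which they do not state. Libraries of the same number deviated together over all intervals. There r was 0.273 for DMSO and GDC0068, 0.317 for DMSO and Degrader, and 0.285 for GDC0068 and Degrader. Over the members alone r was lower, at 0.0881, 0.114 and 0.264 in the same order. A fit with the replicate block was therefore also made. Its value is not printed for every gene whose call it changes, so a missing value does not mean that the call stayed the same. The scripts were tested on simulated data.

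The intervals and gene lists (38 microRNA pathway genes, 30 HG host genes, 21 widely studied microRNAs, luminal markers) were chosen with earlier results of these data known. Named are called members, listed microRNAs with at least 30 counts in every library, the 5 highest by CPM and per kilobase, relatives and copies with at least 100 counts, overlapping intervals, called list genes (up to 6 per comparison by adjusted p, and the further ones of the pathway list by its roles) and the members nearest the count minimum; MIRLET7G, MIR98, MIR5087, MIR4519, MIR6081, MIR5189, MIR4728 and MIR6787 were added after their values were seen. Markers of basal, immune, endothelial and stromal cells were not analysed here. Alternatives were DESeq2 1.42.0, limma-voom 3.58.1, other size factors, no filter, robust estimation, no ribosomal intervals, the 4 libraries compared alone, deeper members, members without overlap, and each library left out.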

Additional observations from a re-analysis of the deposited data

How the results depend on the processing

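The 12 members called under the Degrader became 27 with the replicate block, 6 with DESeq2's Wald test and 7 among the 75 that overlap no other interval on the same strand, fewer being tested there. The 10 called under GDC0068 became 18 with the replicate block and 6 with DESeq2. Between the drugs, 0 became 13 with the replicate block. DESeq2 gave an adjusted p for only 76, 24 and 72 of the 245 members in these 3 comparisons, which limits its counts. With a library left out, the counts ran from 4 to 13 under the Degrader and from 2 to 11 under GDC0068, and stayed at 0 between the drugs. Other size factors, no filter, robust estimation, no ribosomal intervals, only the 4 libraries compared and limma-voom left all 3 counts within 1.5 times. The setting without ribosomal intervals took out only 2 members, so it did not remove all copies of MIR6724 and MIR3648.

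All 22 calls kept their sign in every alternative that gave a value. Of these, 17 kept the call in every alternative that used all libraries of the arms compared and gave an adjusted p. DESeq2 gave none for MIR1285-1, MIR4656, MIR6514 and MIR7112 under the Degrader. Nor did it for MIR200A, MIR3648-2, MIR4521 and MIR6747 under GDC0068. Those calls were judged on 7 such alternatives and not on 8. The exceptions were MIR663A under GDC0068 and MIR663B under both drugs with robust estimation, and MIR149 and MIR203A under the Degrader with DESeq2. Only MIR663A, MIR4521 and MIR6827 under the Degrader kept it in all 14 alternatives. With a median of 43 to 59.5 counts per library, small changes of most members were not detectable.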
